A study of Rattus norvegicus with 8 samples.

Results

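The genes described here encode the constitutive proteasome, the protein-degrading machine of the cell, with its assembly chaperones, activators and inhibitor. Members were taken by name: every non-control probe whose gene name starts with Psma, Psmb, Psmc, Psmd, Psme, Psmf or Psmg and a digit, without the immunoproteasome genes Psmb8, Psmb9 and Psmb10 and the activator genes Psme1 and Psme2. This gave 52 probes of 43 genes, of which 50 probes of 41 genes were measured well enough to test, among 10861 named genes tested in all. The name pattern also took in Psmc3ip, a cofactor of meiotic recombination that is no proteasome subunit, and counts are given with and without it.

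RNA came from BRL-3A, an established cell line derived from rat liver, harvested 48 h after lipofectamine transfection. The cells of 4 arrays had received an siRNA directed at lnc19959.2, a long noncoding RNA, and those of the other 4 arrays carry the transfection label NC; both groups share the line, the reagent and the time. Each array was hybridised with the Cy3-labelled RNA of 1 sample. The study asked what lnc19959.2 does in triglyceride metabolism. No probe for lnc19959.2 itself was found, so the knockdown could not be checked. The labels do not say whether the 4 samples of a group were separate cultures; the p-values therefore reflect the spread among the arrays alone, and this spread may be technical.

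The proteasome is a barrel of stacked alpha and beta rings, the core particle, capped by a regulatory particle. Catalytic sites of 3 beta subunits face the inside of the barrel. The base of the cap holds a ring of 6 ATPases that unfold substrates and thread them inward, and its lid holds the enzyme that removes ubiquitin chains. Dedicated chaperones assemble each part. In mammalian cells the subunit genes are known to be raised together by the transcription factor Nfe2l1 when proteasome activity is short, through antioxidant response elements in their promoters.

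All signals below are log2 values relative to the array's 75th percentile, and differences are siRNA minus NC, each with its standard error (SE) from the limma fit. A gene is represented by its brightest probe, and a call means an adjusted p under 0.05 by limma with Benjamini-Hochberg adjustment over 24853 probes. Probe sequences of the array for the catalytic subunits Psmb5 and Psmb6, for the member that fell most and for Psmd7 are shown here, 5′ to 3′, with rn4 positions from the array design. Those of Psmd7 are its brightest and dimmest probes. Its probe with a difference of the other sign, described below, is not printed.
Psmb5 (chr15:32690134-32690193, minus strand): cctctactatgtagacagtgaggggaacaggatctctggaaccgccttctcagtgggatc
Psmb6 (chr10:57371368-57371427, plus strand): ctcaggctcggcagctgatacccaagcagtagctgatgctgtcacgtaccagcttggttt
Psmd8 (chr1:84310801-84310860, minus strand): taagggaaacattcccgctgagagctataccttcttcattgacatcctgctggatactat
Psmd7, brightest probe (chr19:37452992-37453051, minus strand): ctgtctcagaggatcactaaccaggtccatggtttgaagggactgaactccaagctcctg
Psmd7, dimmest probe (chr19:37456176-37456793, minus strand, spanning more than its own length): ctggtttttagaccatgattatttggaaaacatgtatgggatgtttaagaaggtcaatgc

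The 75th percentile of the processed intensity was 246 to 261 on NC arrays and 289 to 323 on siRNA arrays, with 57.3% to 64.1% and 55.4% to 59.1% of spots well above background. Correlations between arrays were at least 0.986 within a group and 0.946 to 0.962 between groups. All NC arrays lay on slide 1 and all siRNA arrays on slide 2, so slide and group cannot be told apart. Of 12 hepatocyte markers, 5 were measured, and Alb, Ttr, Tf, Serpina1 and Tat were above background on no array, although the tissue label is liver. The summed signal of the measured fibroblast and stellate markers, in multiples of the 75th percentile, was 266 to 294 on NC and 312 to 328 on siRNA arrays. The other marker sums were low and also did not overlap between the groups: 1.16 to 1.35 and 4.61 to 6.43 for 5 hepatocyte markers, 1.13 to 1.42 and 3.47 to 4.23 for 2 cholangiocyte markers, 1.5 to 2.07 and 3.07 to 4.22 for 4 endothelial markers, and 6.40 to 7.24 and 5.13 to 6.20 for 2 leukocyte markers. Measured hepatocyte markers moved both ways, with Cyp2e1 and Hnf4a higher and Apoa1 and Asgr1 lower on siRNA arrays. Endothelial markers also did, with Kdr and Cdh5 higher and Tek and Vwf lower. Of the cholangiocyte markers, Krt7 was higher and Sox9 lower. Col1a2, Col3a1 and Dcn were higher among fibroblast and stellate markers and Pdgfrb lower. Cd68 was lower among leukocyte markers, and Cd14 was not called. The part of these shifts in the results was not tested. In RNA from whole cultures, fewer cells of a type and less RNA per cell cannot be told apart.

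With the scaling described above, proteasome genes were on the whole slightly higher after the siRNA. Of 41 genes, 24 rose, 2 fell (Psmd8 and Psmf1) and 15 were not called. Among all genes, 36.1% were called higher and 28.9% lower. Without Psmc3ip, 23 of 40 rose and 2 fell. The differences were small: the median was 0.16, the quartiles 0.07 and 0.24 and the range −0.24 to 0.46, against a median of 0.04 and quartiles of −0.32 and 0.34 over all genes. By limma, 0 member genes were called at 2-fold or more, against 13.0% of all genes. Every siRNA array lay above every NC array in 25 member genes, against 34.9% of all genes, and below in 2, against 27.6%. At the level of probes, 27 of 50 rose and 2 fell, against 29.7% and 31.9% of all probes.

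**Figure D1:**
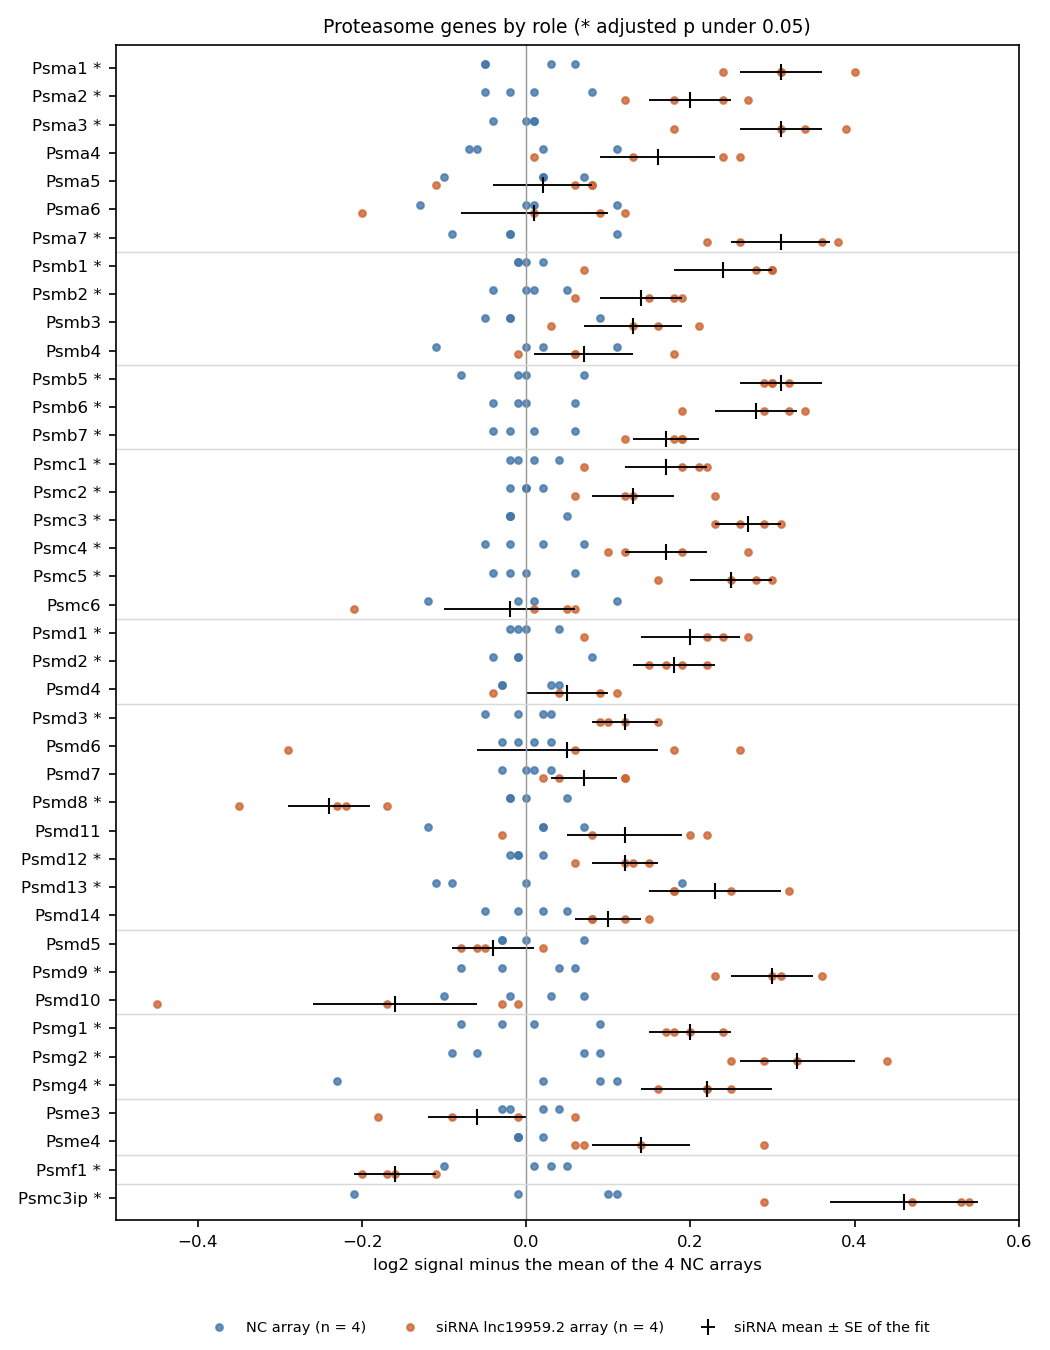
Each row is a proteasome gene, grouped by role, and the x axis is the log2 signal of each array minus the mean of the 4 NC arrays; points are arrays, and the bar is the siRNA mean with the SE of the fit. The siRNA points lie right of the NC points in most rows, with Psmd8 and Psmf1 to the left and a spread of siRNA values reaching lowest in Psmd10.

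How many members are called depends on how the arrays are scaled to each other. Scaling on the 75th percentile of probes bright on all arrays gave 12 higher and 4 lower, with 29.5% and 35.1% of all genes called in those directions. Quantile normalization also gave 12 higher and 4 lower (36.1% and 28.3% of all genes), and cyclic loess gave 10 higher and 5 lower (33.8% and 30.6%). Scaling on the array median raised 38 members and lowered 0 (60.0% and 15.3%), and scaling on spike-in probes raised all 41 (71.4% and 10.3%). With normexp background correction only 1 member was called, Psmc3ip, against 11.1% of genes higher and 7.05% lower, while the member median rose to 0.42. The same correction without spots dimmer than their background called 26 higher and 2 lower (35.1% and 30.0% of all genes), with a median of 0.18. With quantile normalization, cyclic loess and bright probes, the share of members called higher was no larger than that of all genes. With median scaling and spike-ins it was larger. The median of the members stayed above 0 under these 5 other scalings, from 0.04 with cyclic loess to 0.68 with spike-ins. The median of all genes was 0.01 with cyclic loess. With quantile normalization the medians of members and all genes were 0.06 and 0.04, and with bright probes 0.08 and −0.04. The median of all genes moved by 0.31 under median scaling and by 0.52 under spike-ins. All 41 member genes lay above the 75th percentile in mean signal, against 52.8% of all genes; the part of signal level in these shifts was not tested.

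**Figure D2:**
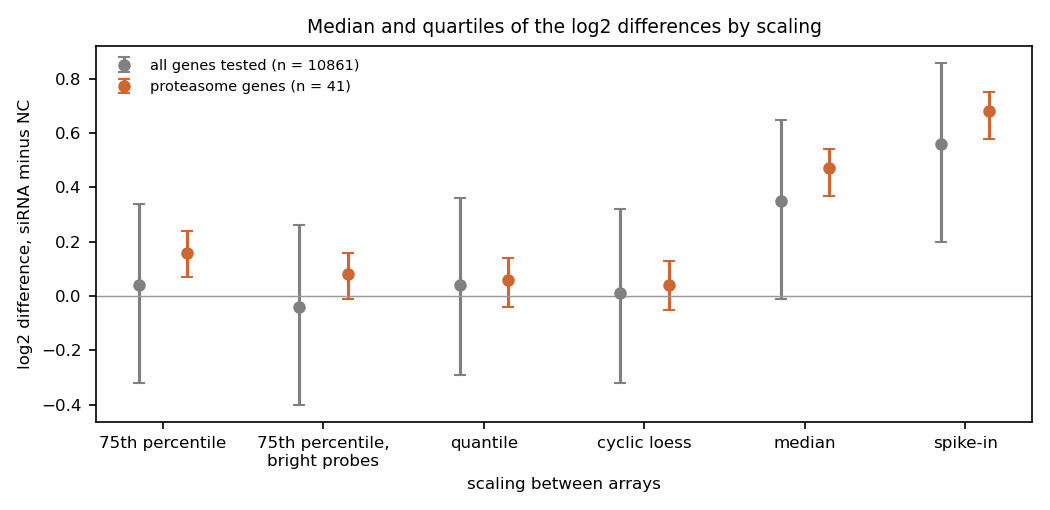
Points are the median log2 difference, siRNA minus NC, of the 41 proteasome genes and of all 10861 genes under each of 6 scalings, and bars run from the lower to the upper quartile. The proteasome median lies above the median of all genes in each scaling, by the least with quantile normalization and cyclic loess, and its quartiles lie inside those of all genes.

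A set of 10 members was called higher under the main scaling and under all 5 others: Psma1, Psma3, Psma7, Psmb5, Psmb6, Psmc3, Psmc5, Psmd9, Psmg2 and Psmc3ip. Of the 24 members that rose, 22 had positive differences under all 5. The shares of all genes that meet these rules were not counted, so the counts show nothing particular to the members. Median and spike-in scaling shifted differences upward, by 0.31 and 0.52 in the median of all genes. A gene called higher with the main scaling was therefore hardly put to the test by them. The risen members without positive differences under all 5 were Psmc2, at −0.01 with quantile normalization, and Psmd12, at 0.00 with cyclic loess.

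The catalytic beta subunits were each called higher with the main scaling. Psmb5 carries the chymotrypsin-like site, the target of bortezomib. Its signal was 4.88, 4.80, 4.87 and 4.95 on NC arrays 1 to 4 and 5.20, 5.17, 5.18 and 5.18 on siRNA arrays 1 to 4. The groups did not overlap, and the siRNA arrays were tightly grouped, 0.31 ± 0.05 (SE) above NC, or 1.24-fold (limma, adjusted p = 0.000796). Psmb6, with the caspase-like site, read 3.52, 3.42, 3.46 and 3.45 against 3.80, 3.78, 3.75 and 3.65. All siRNA values were higher, by 0.28 ± 0.05 (limma, adjusted p = 0.00181). Psmb7, with the trypsin-like site, read 4.02, 3.97, 3.92 and 3.94 against 4.14, 4.15, 4.15 and 4.08, a rise of 0.17 ± 0.04 (limma, adjusted p = 0.0115). It was called in 18 of 22 alternatives, against 21 each for Psmb5 and Psmb6. Its difference was as low as 0.05 among them, with adjusted p up to 0.251 (limma).

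Among the 4 structural beta subunits, which shape the inner rings without a catalytic site, Psmb1 and Psmb2 rose. Psmb1 was 4.15 to 4.18 on NC arrays and 4.46, 4.44, 4.46 and 4.23 on siRNA arrays, with siRNA array 4 well below the other 3 (0.24 ± 0.06; limma, adjusted p = 0.0111). Psmb2 rose by 0.14 ± 0.05, and its call was lost without any 1 of 6 arrays, with an adjusted p of up to 0.0892 (limma, without siRNA array 2). Psmb3 (0.13) and Psmb4 (0.07) were not called; Psmb3 passed without NC array 1 and without siRNA array 4 (0.17 and limma adjusted p = 0.0331 in the latter).

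The outer alpha ring, whose tails form the gate of the barrel, split into risen and uncalled members. Psma1 read 5.68, 5.65, 5.57 and 5.57 on NC arrays and 5.93, 5.93, 6.02 and 5.86 on siRNA arrays. The groups were apart by 0.31 ± 0.05 (limma, adjusted p = 0.00138). Psma3 was 5.27 to 5.32 against 5.62, 5.65, 5.70 and 5.49 (0.31 ± 0.05), and its dimmer probe differed by 0.46 ± 0.07. Psma7 rose by 0.31 ± 0.06 and Psma2 by 0.20 ± 0.05. Psma4 differed by 0.16 ± 0.07 (limma, adjusted p = 0.0845), and passed without siRNA array 4 (0.21, adjusted p = 0.0264). Psma5 (0.02 ± 0.06) and Psma6 (0.01 ± 0.09) had siRNA arrays on both sides of the NC mean. Altogether 9 of 14 core particle genes rose, with a median of 0.18, where 36.1% of all genes were called higher.

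In the regulatory particle, 10 of 17 genes rose and 1 fell, against 36.1% and 28.9% of all genes. The median was 0.12. Of the 6 ATPases, Psmc1 to Psmc5 rose. Psmc3 had the smallest adjusted p of these, with 3.99, 3.92, 3.92 and 3.92 on NC arrays and 4.20, 4.25, 4.23 and 4.17 on siRNA arrays. Its groups were apart by 0.27 ± 0.04 (limma, adjusted p = 0.000957). Psmc5 rose by 0.25 ± 0.05, Psmc1 by 0.17 ± 0.05, Psmc4 by 0.17 ± 0.05 and Psmc2 by 0.13 ± 0.05. Leaving out 1 array ended the call of Psmc1 in 3 of 8 fits, of Psmc4 in 5 and of Psmc2 in 7, with adjusted p up to 0.0548, 0.0727 and 0.11 (limma). Psmc6 was not called, at 4.65, 4.53, 4.55 and 4.42 against 4.60, 4.55, 4.59 and 4.33, so its groups overlapped throughout.

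The large scaffold subunits of the base, Psmd1 and Psmd2, rose by 0.20 ± 0.06 and 0.18 ± 0.05. The mean of both Psmd1 probes differed by 0.08 and was not called (limma, adjusted p = 0.178). Psmd4, a ubiquitin receptor, was not called (0.05 ± 0.05). In the lid, 3 of 8 genes rose, a share near the 36.1% of all genes called higher. These rose by little: Psmd13 by 0.23 ± 0.08, Psmd3 by 0.12 ± 0.04 and Psmd12 by 0.12 ± 0.04. Psmd13 was called although its groups overlapped, with NC array 4 at 2.53 and the lowest siRNA value at 2.52. Without 1 array, the calls of Psmd13, Psmd3 and Psmd12 were lost in 5, 8 and 7 of 8 fits, with adjusted p up to 0.0832, 0.118 and 0.0865 (limma). Psmd14, the deubiquitinating enzyme of the lid, was 0.10 ± 0.04 higher and not called (limma, adjusted p = 0.069), although its groups did not overlap. Psmd6, Psmd7 and Psmd11 were not called, and among the fits without 1 array Psmd6 passed only without siRNA array 4, which read 1.92 against 2.27 to 2.47 on the other 3 (0.17, limma adjusted p = 0.0466).

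Psmd8, a lid subunit placed late in assembly, was the member with the largest fall. It read 4.01, 4.01, 4.03 and 4.08 on NC arrays and 3.86, 3.80, 3.81 and 3.68 on siRNA arrays. Every siRNA array lay below every NC array, with a difference of −0.24 ± 0.05 (limma, adjusted p = 0.00416). The call held without any 1 array, but the sign turned with median scaling (0.06), spike-in scaling (0.27) and normexp (0.08). With normexp run without spots dimmer than their background, the difference was −0.18 (limma, adjusted p = 0.0113). Psmf1, an inhibitor that binds the core particle, was the other member that fell. Its values were 2.68, 2.66, 2.64 and 2.53 against 2.46, 2.43, 2.52 and 2.47, a difference of −0.16 ± 0.05 (limma, adjusted p = 0.0237). The lowest NC value lay just above the highest siRNA value, and the call was lost in 5 of 8 fits without 1 array, with an adjusted p of up to 0.0664 without siRNA array 2. Its sign turned under the same alternatives, to 0.15, 0.35 and 0.10.

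The chaperones of the core particle rose. Psmg1 was higher by 0.20 ± 0.05 and Psmg4 by 0.22 ± 0.08, and the call of Psmg4 was lost without any 1 of 5 arrays (limma, adjusted p up to 0.0958). Psmg2, the partner of Psmg1, read 0.72, 0.74, 0.59 and 0.56 against 0.94, 0.98, 1.09 and 0.90 (0.33 ± 0.07; limma, adjusted p = 0.00305). Of the chaperones that assemble the base, Psmd9 rose, from 4.59, 4.64, 4.71 and 4.73 to 4.97, 4.98, 5.03 and 4.90 (0.30 ± 0.05; limma, adjusted p = 0.00142). Psmd5 (−0.04 ± 0.05) and Psmd10, also called gankyrin (−0.16 ± 0.10), were not called. In Psmd10 the siRNA arrays ranged from 1.87 on array 4 to 2.31 on array 1, partly below the NC range of 2.22 to 2.39.

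The activators Psme3, a nuclear cap, and Psme4, a large single-chain cap, were not called, at −0.06 ± 0.06 and 0.14 ± 0.06. Psmc3ip had the largest difference of all members, with 1.44, 1.32, 1.12 and 1.43 against 1.62, 1.86, 1.80 and 1.87. Its groups did not overlap and differed by 0.46 ± 0.09, or 1.38-fold (limma, adjusted p = 0.00278). Psma8, a testis subunit, was above background on no array, and Psmb11, the thymus subunit, on 1 siRNA array; neither was tested.

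To compare members with each other, the arrays were also scaled to the median of the member genes. Relative to the median member, 8 genes were higher and 6 lower, against 23.0% and 39.8% of all genes. The higher ones were Psma1, Psma3, Psmb5, Psmb6, Psmc3, Psmd9, Psmg2 and Psmc3ip. The lower ones were Psmd8 (−0.39), Psmf1 (−0.31), Psmd10 (−0.31), Psme3 (−0.20), Psmd5 (−0.19) and Psmc6 (−0.17).

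One array stood apart within its group. The median deviation of the 41 members from the NC mean was 0.18, 0.18, 0.19 and 0.07 on siRNA arrays 1 to 4, and siRNA array 4 held the lowest siRNA value in 31 members. Without siRNA array 4 and NC array 4 together, 23 members rose and 2 fell, with a median of 0.17.

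Where a gene had several probes, these mostly moved alike. For each of 10 pairs of probes, the difference between the probes on an array was compared between groups with a two-sided exact permutation test, whose smallest p is 0.0286. The 2 probes of Psmd1 differed by 2.42 to 2.48 on NC arrays and 2.63 to 2.76 on siRNA arrays: one rose by 0.20 and the other was at −0.04. In Psmd7 the probe at chr19:37452301-37452360 was at −0.11 ± 0.04, while the 2 printed above were at 0.07 ± 0.04 and 0.13 ± 0.06. The Psmd1 pair and the 2 Psmd7 pairs that hold this probe reached the smallest exact p of 0.0286, which is 0.0953 after Benjamini-Hochberg adjustment over the 10 pairs, and no pair passed. Near-identical processed copies of several of these genes exist in the rat genome, and the probes may not separate them.

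**Figure D3:**
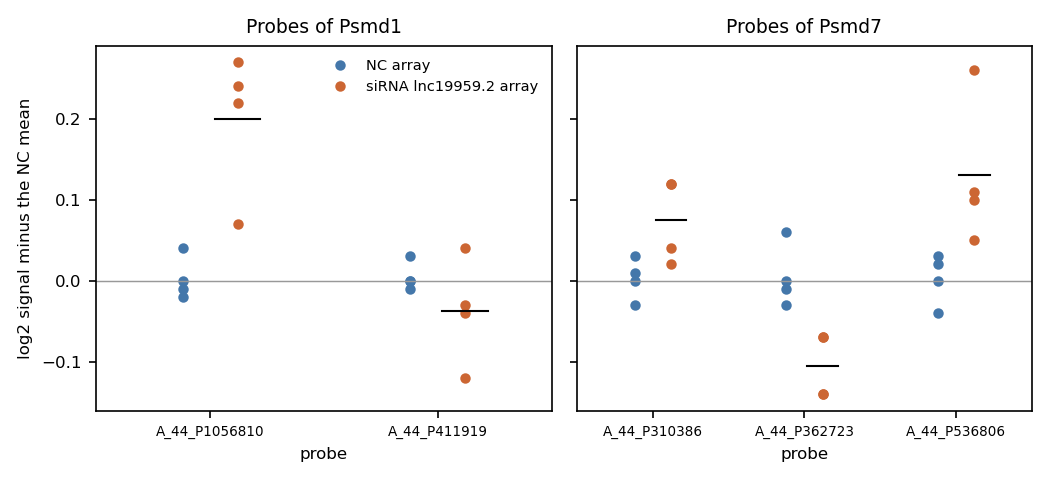
Log2 signal of each array minus the NC mean, for each kept probe of Psmd1 and Psmd7; points are arrays and the black line is the siRNA mean. The siRNA mean of 1 probe of each gene lies below the NC mean, at −0.04 in Psmd1 and −0.11 in Psmd7, while those of the other probes lie above it.

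Promoters were searched for letters of the element through which Nfe2l1 and Nfe2l2 act. RefSeq sequences (GRCr8, from 250 bases before to 50 after the start) were found for 38 of 43 members. The core TGACNNNGC, on either strand, occurred in 8 of 38, or 21.1%, against 14.4% of promoters of genes tested and 12.1% of all promoters in the table. It occurred in 7 of the 22 risen members with a promoter sequence, 1 of the 13 uncalled ones and 0 of the 2 that fell. The risen members are those called with the main scaling. The box CCAAT, on either strand, occurred in 19 of the 38 member promoters and in 37.9% of those of genes tested. By call, it occurred in 11 of the 22 risen members, 7 of the 13 uncalled ones and 1 of the 2 that fell. Each stretch before the start that holds the core is shown in the direction of the gene, with the match in capitals; in Psma3, Psme4 and the first stretch of Psmd9 the match is on the other strand.
Psmb5 (chr15:32047406-32047464, minus strand): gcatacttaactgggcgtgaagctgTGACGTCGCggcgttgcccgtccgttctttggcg
Psmb6 (chr10:55737839-55737887, plus strand): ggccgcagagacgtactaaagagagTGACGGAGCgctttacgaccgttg
Psmb2 (chr5:144254965-144255023, plus strand): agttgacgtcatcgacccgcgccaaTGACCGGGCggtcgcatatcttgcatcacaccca
Psma3 (chr6:95219712-95219748, plus strand): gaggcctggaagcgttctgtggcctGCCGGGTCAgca
Psmd1 (chr9:94157781-94157839, plus strand): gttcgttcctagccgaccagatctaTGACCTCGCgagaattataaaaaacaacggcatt
Psmd9, first (chr12:39018355-39018413, minus strand): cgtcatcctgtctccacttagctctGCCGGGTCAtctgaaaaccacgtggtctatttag
Psmd9, second (chr12:39018308-39018366, minus strand): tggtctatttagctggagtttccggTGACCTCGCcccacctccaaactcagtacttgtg
Psme4 (chr14:108706563-108706621, plus strand): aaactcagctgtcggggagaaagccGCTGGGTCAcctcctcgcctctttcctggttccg
The match starts 60 bases before the start in Psmb5, 24 in Psmb6, 68 in Psmb2, 12 in Psma3 and 165 in Psmd1. A match describes letters only and shows no binding.

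The genes around the proteasome gave a mixed picture: of 38 measured on the partner lists, 9 rose and 14 fell, or 23.7% and 36.8%, where 36.1% and 28.9% of all genes were called in those directions. Of the 5 immunoproteasome and activator genes, which interferon is known to raise, 3 rose. Psmb9, an inducible catalytic subunit, read 2.43, 2.41, 2.55 and 2.43 against 2.99, 2.96, 3.06 and 2.98, a rise of 0.54 ± 0.05 (limma, adjusted p = 8.01e-05). Psmb10 rose by 0.31 ± 0.06 and Psme1 by 0.27 ± 0.05, while Psmb8 (0.15 ± 0.10) and Psme2 (0.15 ± 0.08) were not called; Psmb8 passed without NC array 3 (0.23; limma, adjusted p = 0.0377). Of the subunits and maturation factors without a Psm name, Sem1 (0.27 ± 0.05) and the core assembly factor Pomp (0.17 ± 0.05) rose, and the ubiquitin receptor Adrm1 was not called (0.06 ± 0.07). The call of Pomp was lost without siRNA array 2 (limma, adjusted p = 0.0532). Of 4 bound enzymes measured, Uchl5, a deubiquitinase of the regulatory particle, rose by 0.47 ± 0.06.

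Of 10 regulators measured, 9 fell and 1 rose, against the same shares of all genes. Mafk, a small Maf protein that pairs with the Nfe2l factors on DNA, read −0.03, 0.06, 0.04 and −0.09 against −1.23, −1.26, −1.22 and −1.61. This was a fall by 1.32 on the log2 scale, to 0.400 of the NC level (limma, adjusted p = 2.13e-05). Maff, of the same family and above background on 3 of 4 siRNA arrays, differed by −1.68 ± 0.21, and Bach1, a repressor at the same DNA elements, by −0.97 ± 0.12. Akirin2 (−0.49 ± 0.07), which brings proteasomes into the nucleus, and Nfe2l2 (−0.22 ± 0.08) also fell. The Nfe2l2 call was close to the threshold (limma, adjusted p = 0.0477). Its groups overlapped, with NC array 4 at 4.56 and siRNA array 1 at 4.59. Ngly1 (0.36 ± 0.07), an enzyme that processes Nfe2l1, was the gene that rose. Akirin2, Nfe2l2 and Ngly1 were chosen after their values were seen. The 9 falls numbered 7 under median scaling and 4 under spike-in scaling. Differences were positive in 2 of the 10 regulators under median scaling and in 5 under spike-in scaling. Nfe2l1 itself was not measured well enough to test.

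Among 10 ubiquitin shuttles and p97 cofactors, 2 rose and 2 fell, against 36.1% and 28.9% of all genes. Rad23b, which carries ubiquitinated proteins to the proteasome, rose by 0.35 ± 0.06, while Ubqln2, another shuttle, and Nploc4, a p97 adaptor, differed by −0.49 ± 0.08 and −0.42 ± 0.11. On the list of ubiquitin and ubiquitin-activating genes, Ubb, which encodes a chain of ubiquitin units (−0.41 ± 0.08), and the activating enzyme Uba6 (−0.40 ± 0.14) fell. Ubb read 8.61, 8.70, 8.68 and 8.54 against 8.38, 8.24, 8.25 and 8.03, with no overlap. The call of Uba6 was lost in 6 of 8 fits without 1 array (limma, adjusted p up to 0.104). A dimmer Uba6 probe passed the background mark on each NC array but on no siRNA array, and was at least 2.35-fold lower there. This bound was set against the lowest signals well above background on each siRNA array or the probe's own, and was not tested. The measured difference of −1.7 (limma, adjusted p = 0.000424) rests on siRNA signals that did not pass the background mark. Ubqln2, Nploc4, Ubb and Uba6 had positive differences with spike-in scaling.

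**Figure D4:**
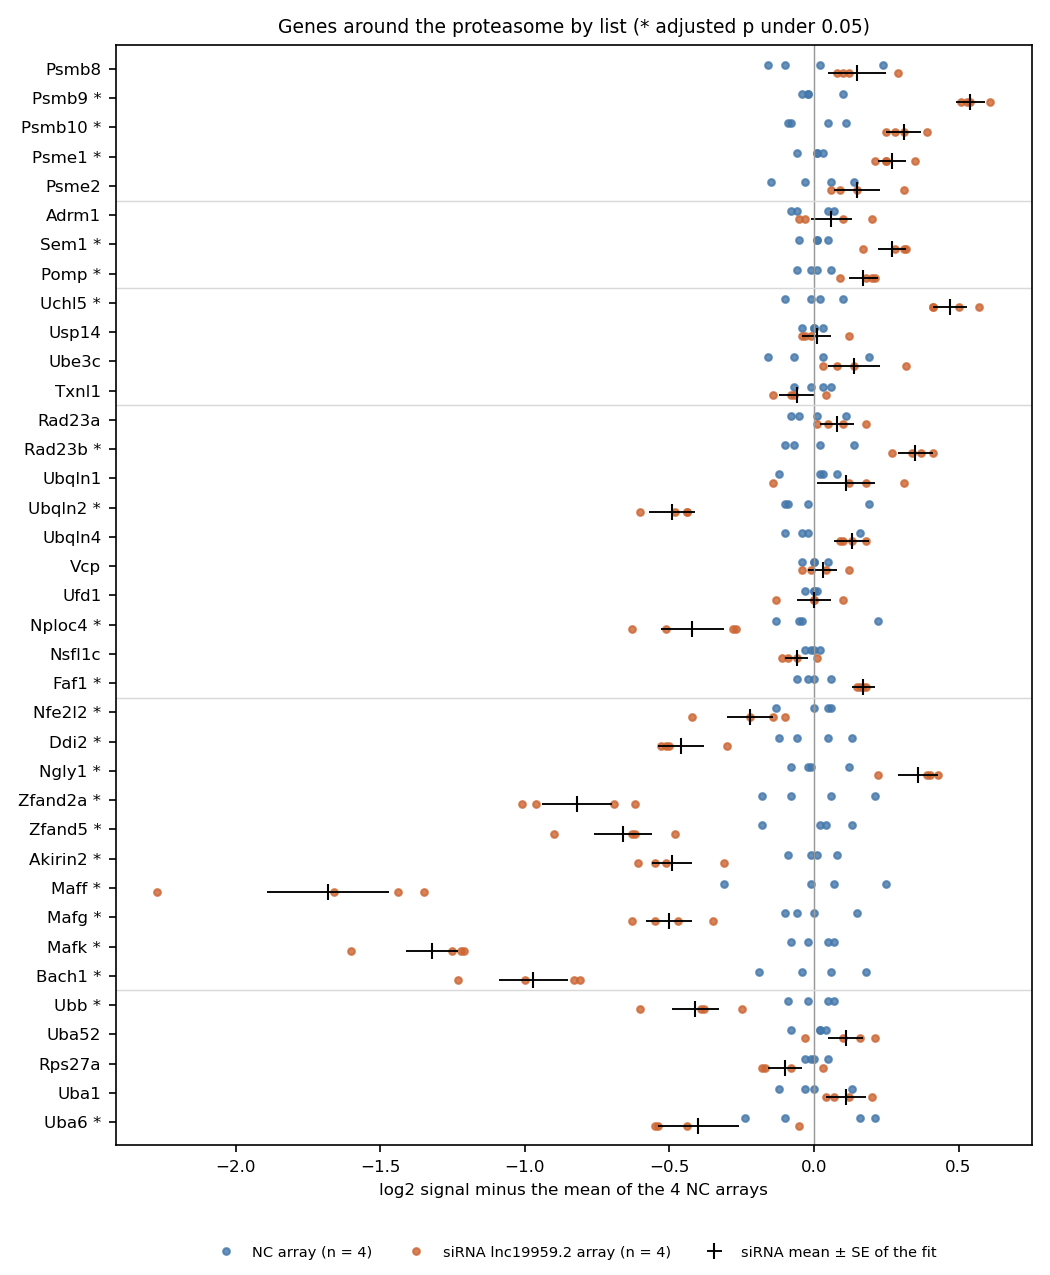
Each row is a measured gene of the partner lists, except the gene not reported here. The x axis is the log2 signal of each array minus the mean of the 4 NC arrays. Points are arrays, and the bar is the siRNA mean with the SE of the fit. Maff, Mafk and Bach1 lie farthest left, and Psmb9 and Uchl5 farthest right.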

How the data were processed

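The deposited scanner files hold spot intensity from Agilent Feature Extraction 12.0.3.1, per the file headers; the submitters' processing notes give version 12.0 and name limma with no role. The processed intensity was background-subtracted and detrended within each array, per the file headers, and not scaled between arrays. A table of the whole series deposited by the authors gives log2 values for 86 probes, none of a member; their column medians were 5.17 to 5.45 on NC and 5.24 to 5.72 on siRNA arrays, and no source used here gives their normalization.

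Control spots and marked outlier spots (129 to 174 per array) were left out. Processed intensities were taken to log2, the 75th percentile of the array was subtracted, and spots of a probe were averaged. Probes well above background on at least 3 of 4 arrays of a group were kept, which left 24853. The siRNA arrays were set against the NC arrays by lmFit and eBayes of limma 3.58.1 (R 4.3.3), two-sided, with Benjamini-Hochberg adjustment over all kept probes. The number of arrays limits the precision. The fit was tested on simulated data.

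The members and lists were chosen with earlier results of these data known. Every member with a kept probe is named, as are the immunoproteasome and activator genes, the subunits without a Psm name and, in each other partner list, up to 3 called genes with the smallest adjusted p. One gene of the partner lists is counted in their totals but not reported here. Alternatives covered scaling, background correction, filters, weights, the choice of probe, a replicate block and single arrays left out.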

Additional observations from a re-analysis of the deposited data

Results flagged for a closer look

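The search covered each member probe and each partner gene named by the selection rule, in each group. Of these 138 groups of 4 arrays, 11 had 1 array far from the other 3, where chance alone gives about 1 in 20. Akirin2, Nfe2l2, Ngly1 and the dimmer Uba6 probe were not examined in this way. On siRNA array 4 the outlying values were low: Psma5 at 5.19 (others 5.36 to 5.38), Psmb1 at 4.23 (4.44 to 4.46), Psmb7 at 4.08 (4.14 to 4.15), Psmc6 at 4.33 (4.55 to 4.60) and Mafk at −1.61 (−1.26 to −1.22). The dimmer probe of Psma6 read 4.79 on NC array 4 (others 4.97 to 5.00). Psme4 read 2.01 on NC array 4 (others 1.98), Psmc3 read 3.99 on NC array 1 (others 3.92), and Psmb9 read 2.55 on NC array 3 (2.41 to 2.43). Psmb11, which was not tested, read −5.90 on NC array 1 (−6.49 to −6.40) and −3.53 on siRNA array 3 (−6.67 to −6.31). The source of these values was not tested.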

How the results depend on the processing

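The number of called member genes, 26, became 16 with quantile normalization, 15 with cyclic loess, 41 with spike-in scaling, 16 with the percentile over bright probes, 1 with normexp and 14 relative to the member median (an alternative chosen after seeing the data, as were the runs without Psmc3ip and without both arrays numbered 4). The 24 higher genes became 38 with median scaling, 12 with quantile, 10 with cyclic loess, 41 with spike-ins, 12 with bright probes, 1 with normexp and 8 relative to the member median. The 2 lower genes became 0 with median scaling, spike-ins and normexp (limma), 4 with quantile and bright probes, 5 with cyclic loess, 6 relative to the member median and 1 with no filter. Called member probes, 29, became 47, 19, 18, 50 and 2 with median scaling, quantile, cyclic loess, spike-ins and normexp; the 27 higher became 47, 13, 11, 50 and 2, and 14 with bright probes; the 2 lower became 0, 6, 7, 0 and 0, 6 with bright probes and 1 with no filter. The member median of 0.16 became 0.47 with median scaling, 0.06 with quantile, 0.04 with cyclic loess, 0.68 with spike-ins, 0.08 with bright probes, 0.42 with normexp and 0.01 relative to the member median. Called partners, 23, became 6 with normexp; the 9 higher became 24, 25 and 2 and the 14 lower 7, 4 and 4 with median scaling, spike-ins and normexp.

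Signs turned in these genes where the value as reported or under the alternative was called: Psmc2 with quantile (−0.01) and relative to the member median (−0.01); Psmd3 (−0.03) and Psmd12 (−0.03) relative to the member median; Psmd8 (0.06, 0.27 and 0.08) and Psmf1 (0.15, 0.35 and 0.10) with median scaling, spike-ins and normexp; Psmc6 (0.29 and 0.50), Psmd5 (0.27 and 0.48) and Psme3 (0.25 and 0.46) with median scaling and spike-ins; Psmd10 (0.35), Ubqln2 (0.03), Nploc4 (0.09), Ubb (0.11) and Uba6 (0.12) with spike-ins. In 14 members a sign also changed with neither value called; for 8 of them (Psma5, Psma6, Psmb4, Psmd4, Psmd6, Psmd7, Psmd11 and Psmd14) this was under quantile, cyclic loess or bright probes, at −0.12 to −0.01. These lists cover the members and the partners named by the selection rule. Akirin2, Nfe2l2, Ngly1 and the other partners were not followed gene by gene. Of the 10 regulators measured, 1 had a positive difference as reported, 2 with median scaling and 5 with spike-ins. The cause of the sign changes was not tested.

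Without 1 array, 18 to 26 member genes were called (17 to 24 higher, 1 to 2 lower), 21 to 29 probes (20 to 27 higher, 1 to 2 lower) and 20 to 24 partners (8 to 11 higher, 12 to 15 lower), with a member median of 0.14 to 0.18. Of the 24 higher members, 16 were called in every such fit, and the matching share of all genes was not counted. Same-numbered deviations correlated at 0.0541, 0.0789, −0.0161 and 0.382, and those with unlike numbers at −0.267 to 0.206. Only the arrays numbered 4 thus correlated above every pair with unlike numbers. With the number as a replicate block, 19 member genes were called, 18 higher and 1 lower, 1 of the 22 probe calls was lower, and the median was 0.16. The deposited table holds no member probe, so that alternative could not be run for members. The slide of an array and its group cannot be told apart. The median SE of a member was 0.05, which limits the smallest differences that could be called.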
